A study of Mus musculus with 30 samples.

Results

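The 10 genes described here lie within 20 Mb of Tet2 on mouse chromosome 3: Camk2d, Pla2g12a, Mcub, Cisd2, Manba, Slc39a8, Mttp, Tspan5, Ssx2ip and Adgrl2. They were chosen by measured values, as genes of that interval whose levels differed by Tet2 genotype in these libraries, with Gbp and Rpl34 genes set apart. They are 10 of the 16070 genes in the table, and 10 of its 140 genes, Tet2 left out, whose bodies lie within 20 Mb of Tet2. Because the genotype comparisons chose them, their genotype differences are given as a description with no p-value, and counts of calls among them are printed only beside the share over all genes. Their change with age and their difference between cell fractions did not enter the choice and were tested.

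RNA sequencing measured gene expression in bone marrow cells of mice of the strain Mixed 129/C57BL/6 that carried WT Tet2, a Mut allele deficient in catalytic function, or a KO. Cells were sorted as LSK, which are lineage-negative, Sca1-positive and cKit-positive stem and progenitor cells, or as Lin-negative, the wider population without lineage markers. Each of the 6 groups (LSK WT, LSK Mut, LSK KO, Lin-negative WT, Lin-negative Mut and Lin-negative KO) had 4 libraries, taken at ages of 3, 6, 9 and 12 months, so there were 24 libraries, and marrow of 3 mice was pooled for each. The 4 ages stood in for replicates of a genotype, and p-values measure only the spread between these libraries. All groups shared the mixed strain. The making of the Mut and KO alleles, the extent of backcrossing and the kinship of the WT mice to them are not stated. Another 6 samples of bisulfite sequencing were not analysed here.

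Tet2 encodes a dioxygenase that oxidises 5-methylcytosine in DNA, and it is often mutated in clonal blood disorders. When an allele is targeted in stem cells of 1 strain and bred into another, DNA around the target is inherited with it, and genes in that stretch can carry variants of the first strain that alter their level. In mice of a mixed strain this flanking DNA can differ between genotypes. Here the Tet2 allele and the DNA linked to it were not varied separately, so an effect of one and of the other cannot be told apart, and the strain of origin of the flanking DNA was not measured.

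The fractions were checked before the results. Kit, the receptor that defines LSK cells together with Sca1, had a median normalized count of 4762.3 in the 12 LSK and 4101.0 in the 12 Lin-negative libraries. Ly6a, which encodes Sca1, had medians of 512.7 and 686.5. Neither differed by limma's test (adjusted p = 0.123 and 0.18). Markers of mature cells were present in both fractions: Itgam had medians of 11850.5 and 11821.3, and Ly6g 5998.7 and 6777.4. Over all genes tested, 0 of 16061 (0%) passed between the fractions by limma at an adjusted p under 0.05, while 3581 had an unadjusted p under 0.05. No count-based tool was run for that comparison. The summed normalized count of 8 granulocyte markers ran from 1418130.2 to 2574280.1 in LSK WT libraries, and that of 10 stem and progenitor markers from 9014.7 to 13466.7. The expression data thus do not separate the fractions as labelled, and LSK and Lin-negative name the label of a library throughout. The fractions were described side by side and not as independent support for each other. Normalized library totals ran from 34203744 to 44493691. For the 12-month LSK Mut library the description code ends in the KO letter; title, column name and genotype label all read Mut, and Mut was used. The Y index, which sums 4 genes of the Y chromosome (Uty, Kdm5d, Eif2s3y and Ddx3y) and divides by the largest sum, ran from 0.000 in both 12-month WT libraries to 1 in the 3-month LSK KO library, so the sex make-up of the pools differed.

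The 10 genes lie on both sides of Tet2, whose body is at chr3:133463677-133545136 (GRCm38.p6, the assembly that mm10 names). On the lower-coordinate side are Camk2d at chr3:126595487-126846326, 6.62 Mb from Tet2, Pla2g12a at chr3:129878606-129895825, 3.57 Mb away, and Mcub at chr3:129914960-129970211, 3.49 Mb away. On the other side, Cisd2 at chr3:135406412-135424039, Manba at chr3:135485611-135571404 and Slc39a8 at chr3:135816882-135888572 are neighbours 1.86, 1.94 and 2.27 Mb from Tet2. Mttp at chr3:138089855-138143418 and Tspan5 at chr3:138741848-138904433 follow at 4.54 and 5.20 Mb. Ssx2ip at chr3:146404642-146440144 and Adgrl2 at chr3:148815586-148989096 are the most distant, at 12.86 and 15.27 Mb.

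Of the 10 genes, 5 had mean log2 differences from WT sized 0.32 or more with the same sign in both mutant genotypes and fractions. Adgrl2, Ssx2ip, Slc39a8 and Pla2g12a were lower and Camk2d was higher. Tspan5 also kept its sign throughout but was smaller, at 0.12 in Lin-negative Mut. The limit equals the smallest value among the 5 genes, that of Pla2g12a in Lin-negative KO, so the group only describes these values. The 250 bases upstream of an annotated start of these 5 genes are shown to see what sequence, if any, the genes that were low together have in common. They are from RefSeq on GRCm38.p6, read 5′ to 3′ on the gene's strand, with every CG dinucleotide, the site at which TET enzymes act when it is methylated, in capitals. The reference is that of C57BL/6J, so it shows no 129 allele. The windows are chr3:148954636-148954885 (minus strand) for Adgrl2, chr3:146404392-146404641 (plus) for Ssx2ip, chr3:135825029-135825278 (plus) for Slc39a8, chr3:129880934-129881183 (plus) for Pla2g12a and chr3:126596701-126596950 (plus) for Camk2d.
Adgrl2: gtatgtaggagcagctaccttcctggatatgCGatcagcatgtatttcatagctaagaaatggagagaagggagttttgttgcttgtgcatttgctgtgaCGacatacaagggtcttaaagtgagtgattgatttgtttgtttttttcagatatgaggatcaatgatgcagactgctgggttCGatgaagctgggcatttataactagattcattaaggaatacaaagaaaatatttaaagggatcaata
Ssx2ip: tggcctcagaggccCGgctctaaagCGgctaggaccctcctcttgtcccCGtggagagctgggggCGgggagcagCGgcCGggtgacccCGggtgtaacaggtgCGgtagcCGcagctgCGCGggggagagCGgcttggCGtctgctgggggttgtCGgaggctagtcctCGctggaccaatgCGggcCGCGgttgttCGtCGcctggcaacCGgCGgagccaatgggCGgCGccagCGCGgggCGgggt
Slc39a8: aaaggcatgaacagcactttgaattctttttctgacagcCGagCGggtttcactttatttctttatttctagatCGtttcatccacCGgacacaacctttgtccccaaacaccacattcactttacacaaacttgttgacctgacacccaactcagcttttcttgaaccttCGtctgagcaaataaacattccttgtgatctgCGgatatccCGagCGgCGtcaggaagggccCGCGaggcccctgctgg
Pla2g12a: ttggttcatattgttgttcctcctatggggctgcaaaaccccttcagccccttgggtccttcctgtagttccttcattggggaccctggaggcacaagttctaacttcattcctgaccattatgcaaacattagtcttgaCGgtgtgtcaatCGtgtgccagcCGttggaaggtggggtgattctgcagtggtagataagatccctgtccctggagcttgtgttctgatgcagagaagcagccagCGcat
Camk2d: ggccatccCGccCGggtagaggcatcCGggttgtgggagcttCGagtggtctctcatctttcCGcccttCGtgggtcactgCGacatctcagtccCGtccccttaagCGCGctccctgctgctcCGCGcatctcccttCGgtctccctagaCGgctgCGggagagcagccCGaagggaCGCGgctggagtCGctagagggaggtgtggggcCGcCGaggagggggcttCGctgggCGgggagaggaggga
The windows of Adgrl2, Slc39a8, Pla2g12a and Camk2d lie inside the annotated gene body, so a start further upstream is annotated too, and which start these cells used was not tested. Slc39a8 has 2 windows in the RefSeq table and the first is shown. The 4 genes that were low together did not share a CG content: Adgrl2 had 3 CG dinucleotides, Pla2g12a 4, Slc39a8 11 and Ssx2ip 27. Camk2d had 23. Over the 11177 genes of the table with such a window, the median was 15 and the quartiles were 8 and 22. The other 5 genes, all matched in the RefSeq table, had 8 (Mcub), 19 (Manba), 25 (Mttp), 33 (Cisd2) and 33 (Tspan5). The letters GAGGAA, a form of the ETS core, were found on either strand in 4 of the 10 windows (Cisd2, Manba, Mcub and Pla2g12a) against 23% of all windows. AGATAA, a form of the GATA site, was found in 1 (Pla2g12a) against 6.4%. A match is a description of the letters in this window.

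**Figure D1:**
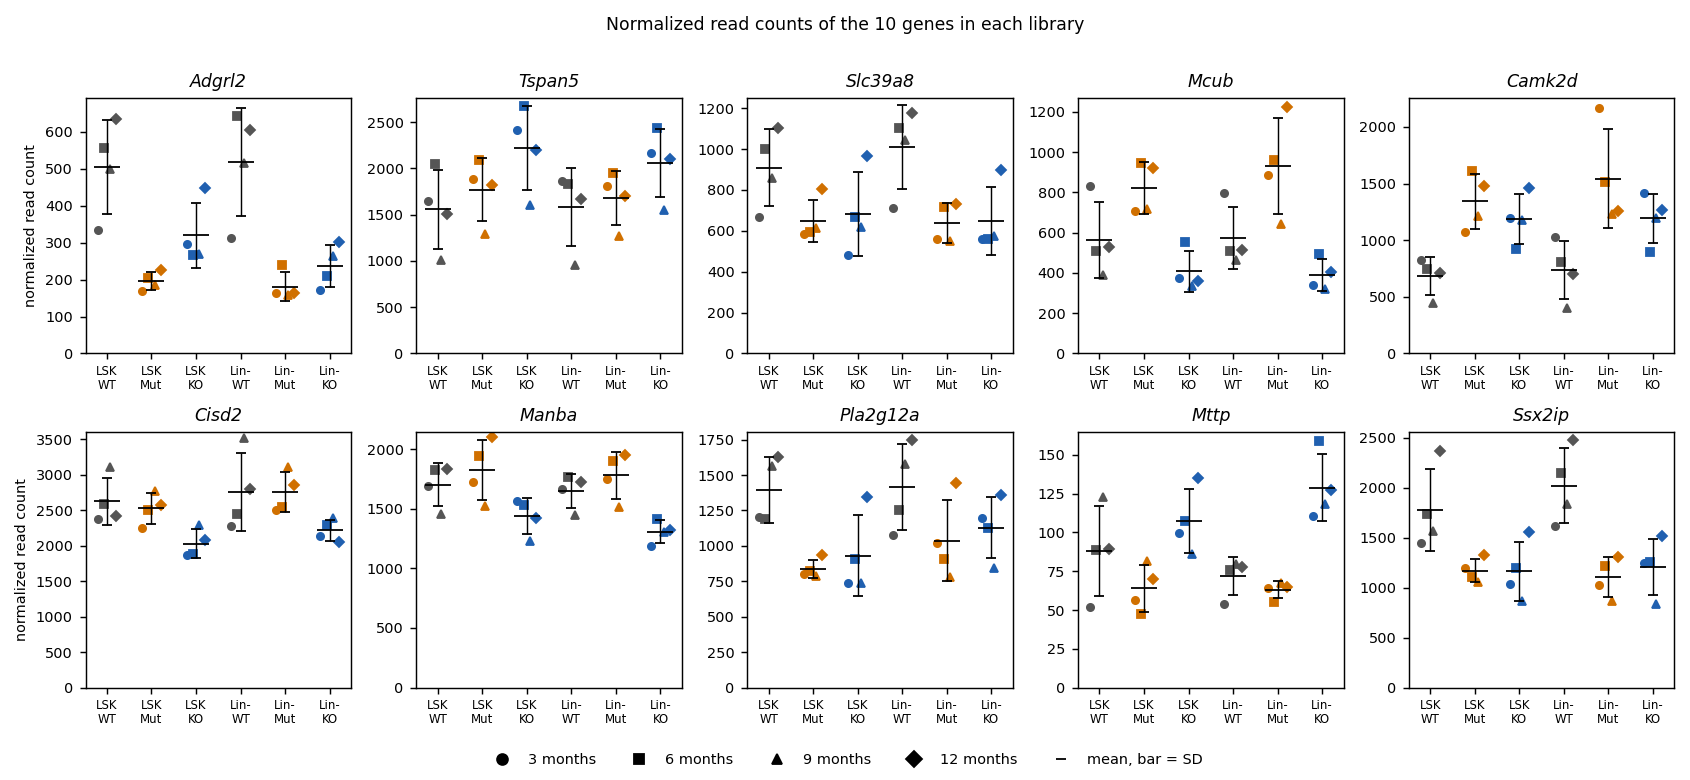
Normalized read counts of the 10 genes in each of the 24 libraries, 1 panel per gene, with fraction and genotype on the horizontal axis. Symbols mark the age, the horizontal line is the mean of 4 libraries and the bar is ± 1 SD. Adgrl2, Slc39a8, Pla2g12a and Ssx2ip have lower means in Mut and KO than in WT, Camk2d has higher means, and Mcub is high in Mut and low in KO.

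Tet2 itself comes first among the values. In LSK cells its normalized count at 3, 6, 9 and 12 months was 1528.9, 2264.6, 2951.2 and 1430.8 in WT, 2535.0, 2294.8, 3409.1 and 2184.8 in Mut, and 1845.3, 1346.5, 2353.8 and 1484.1 in KO. Lin-negative counts ran from 1632.2 to 3098.3 for WT, from 1255.1 to 3326.3 for Mut and from 1013.0 to 2610.6 for KO (n = 4 each). The ranges of the 3 genotypes overlapped in both fractions. Compared at the same age, KO was below Mut at all 4 ages in LSK cells, with differences of -0.46, -0.77, -0.53 and -0.56 (mean -0.58, SE 0.130), but above WT at 3 and 12 months. Mut was above WT at all 4 ages there (mean 0.39, SE 0.130), and KO against WT had a mean of -0.19 (SE 0.130). In Lin-negative cells KO was below WT at all 4 ages (mean -0.43, SE 0.167) and below Mut at 3 of 4. None of these means passed the limma test. In LSK cells the limma adjusted p was 0.402 (KO against Mut), 0.0664 (Mut against WT) and 0.443 (KO against WT). For KO against WT in Lin-negative cells it was 0.233. These counts cover the whole gene and so do not check the alleles, either a changed base or a missing exon. All 6 groups had their highest Tet2 count at 9 months. In bulk libraries such as these, fewer cells of a type and less RNA per cell cannot be told apart.

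Among the proteins of the cell surface, Adgrl2, which encodes the adhesion G protein-coupled receptor latrophilin 2, had the largest differences from WT of the 10 genes in 3 of the 4 comparisons with WT. In LSK cells its normalized count at 3, 6, 9 and 12 months was 333, 555.1, 499.6 and 634.1 in WT, 168.8, 203.2, 185.8 and 226.9 in Mut, and 296.9, 265.5, 268.4 and 449.2 in KO. Every Mut library was below every WT library and below every KO library, while KO overlapped WT. In Lin-negative cells the counts were 313, 641.8, 515.6 and 604.8 in WT, 163.5, 240, 157.1 and 163.3 in Mut, and 170.6, 210.7, 264.7 and 302 in KO. There both Mut and KO lay wholly below WT, and Mut and KO overlapped. The log2 difference from WT was -1.33 (SE 0.149) in LSK Mut and -1.48 (SE 0.196) in Lin-negative Mut, or 0.398 and 0.357 times the WT level. For KO it was -0.65 (SE 0.149) in LSK and -1.11 (SE 0.196) in Lin-negative libraries. The sign was the same at all 4 ages in each of these comparisons, and the smallest single-age value was -0.16, for KO in LSK cells at 3 months.

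Slc39a8 encodes ZIP8, a plasma membrane importer of zinc and manganese. Its LSK counts by age were 666.8, 1002.7, 861.1 and 1103.7 in WT, 582.8, 593.8, 615.2 and 803.3 in Mut, and 479.5, 667.4, 620.2 and 967.2 in KO. Its Lin-negative counts were 712.2, 1102.6, 1043.0 and 1177.3 in WT, 561.8, 716.0, 549.7 and 731.1 in Mut, and 562.1, 561.0, 573.2 and 898.8 in KO. Both mutant genotypes were below the WT library of the same age at every age in both fractions, although the ranges overlapped. The log2 differences in LSK cells were -0.47 for Mut and -0.43 for KO (SE 0.104 each). Both genotypes had -0.64 (SE 0.134) in Lin-negative cells.

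Tspan5, a tetraspanin that binds the protease ADAM10 and shapes its choice of substrates, was highest in KO. LSK counts at 3, 6, 9 and 12 months were 1651.1, 2049.6, 1014.5 and 1512.1 in WT, 1882.4, 2086.3, 1293.5 and 1822.8 in Mut, and 2415.5, 2670.7, 1608.6 and 2194.2 in KO. All groups were lowest at 9 months. The KO range overlapped those of WT and Mut only through its 9-month library, and KO was above both at every age. The ranges of WT and Mut overlapped at the other ages as well. Lin-negative means (n = 4) were 1582.6 ± 424 (SD) for WT, 1682.3 ± 291 for Mut and 2062.8 ± 368 for KO. The log2 difference between KO and WT was 0.53 (SE 0.067) in LSK and 0.41 (SE 0.095) in Lin-negative cells, and that between Mut and WT was 0.21 (SE 0.067) and 0.12 (SE 0.095).

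Among genes of calcium handling, Camk2d encodes the delta chain of calcium/calmodulin-dependent protein kinase II. Its LSK counts by age were 828.3, 742.3, 445.8 and 713.7 in WT, 1070.4, 1610.0, 1212.7 and 1477.7 in Mut, and 1197.7, 920.1, 1176.4 and 1463.5 in KO. Every Mut and every KO library was above every WT library. In Lin-negative cells the counts were 1031.3, 811.1, 405.3 and 699.6 in WT, 2168.2, 1515.7, 1227.7 and 1255.1 in Mut, and 1413.9, 894.2, 1192.5 and 1267.1 in KO, where Mut lay wholly above WT and KO overlapped it. The log2 difference from WT in LSK cells was 0.99 in Mut libraries and 0.82 in KO libraries (SE 0.176 each), and the Lin-negative values were 1.10 and 0.75 (SE 0.189 each). The 9-month WT libraries were the lowest of all, and the 9-month differences were the largest, at 1.44 (Mut) and 1.40 (KO) in LSK cells. Without the 9-month libraries the Lin-negative KO difference was 0.48.

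Mcub encodes a subunit of the mitochondrial calcium uniporter that lowers its activity. It differed from WT in opposite directions in the mutant genotypes. LSK counts by age were 833.8, 507.4, 387.5 and 528.2 in WT, 705.4, 946.3, 719.2 and 918.9 in Mut, and 375.3, 555.5, 337.2 and 361.9 in KO. Every KO library was below every Mut library in both fractions, and WT lay between and overlapped both. The log2 difference between KO and Mut was -1.03 (SE 0.186) in LSK and -1.24 (SE 0.187) in Lin-negative cells. Against WT, the LSK values were 0.59 (Mut) and -0.44 (KO), and the Lin-negative values 0.70 and -0.54. These sizes rested on few libraries: with the Y index in the fit the LSK values were 0.15 and -0.75 and the Lin-negative Mut value was 0.42, and without the 3-month WT library KO had -0.18 in LSK and -0.33 in Lin-negative libraries. The 3-month WT libraries, at 833.8 and 799.3, were the highest of their groups, and the LSK difference of Mut from WT was -0.24 at 3 months and between 0.80 and 0.90 at the later ages.

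Cisd2, an iron-sulfur protein of the endoplasmic reticulum and mitochondrial outer membrane that helps to keep calcium stores, was low in KO and close to WT in Mut. LSK counts by age were 2383.7, 2594.7, 3105.5 and 2421.7 in WT, 2250.2, 2509.7, 2771.8 and 2581.1 in Mut, and 1874.4, 1878.5, 2295.6 and 2076.5 in KO. KO lay wholly below WT in LSK cells, and wholly below Mut in Lin-negative cells. Against WT, KO had log2 differences of -0.37 (LSK, SE 0.063) and -0.30 (Lin-negative, SE 0.096), and Mut had -0.05 and 0.01 with the same SE.

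Manba encodes lysosomal beta-mannosidase and is the next gene to Cisd2 among the 10. Its LSK counts by age were 1692.2, 1826.9, 1451.4 and 1834.0 in WT, 1727.8, 1941.3, 1526.6 and 2097.4 in Mut, and 1568.5, 1532.0, 1228.7 and 1418.4 in KO. At every age and in both fractions KO was below WT and WT below Mut, but by small steps. The log2 difference of Mut from WT was 0.10 in LSK (SE 0.072) and 0.11 in Lin-negative cells (SE 0.087), and that of KO was -0.24 and -0.33 with the same SE. In Lin-negative cells the KO range, up to 1416.0, lay below those of WT and Mut, which began at 1448.3 and 1516.0.

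Of the lipid genes, Pla2g12a encodes a secreted phospholipase A2. Its LSK counts by age were 1201.4, 1192.1, 1560.8 and 1628.5 in WT, 799.7, 824.6, 788.5 and 933.9 in Mut, and 739.5, 906.2, 738.4 and 1341.9 in KO. Mut lay wholly below WT, while the 12-month KO library reached into the WT range. In Lin-negative cells the counts were 1076.8, 1254.7, 1579.4 and 1748.2 in WT, 1021.6, 908.8, 777.4 and 1442.7 in Mut, and 1193.9, 1125.7, 840.3 and 1356.6 in KO, and all 3 genotypes overlapped. The log2 differences of Mut and KO from WT were -0.73 and -0.61 in LSK libraries (SE 0.123 each) and -0.46 and -0.32 in Lin-negative libraries (SE 0.155 each). At 3 months in Lin-negative cells the values were -0.08 and 0.15, and at 9 months -1.02 and -0.91. Without the 9-month WT library the Lin-negative differences were -0.27 and -0.13.

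Mttp encodes the microsomal triglyceride transfer protein, which loads lipid onto apolipoprotein B in liver and intestine. Its LSK counts by age were 52.0, 88.6, 122.9 and 89.2 in WT, 56.6, 47.6, 81.9 and 69.7 in Mut, and 99.7, 107.7, 86.2 and 135.4 in KO. Every KO library was above every Mut library in both fractions, and in Lin-negative cells also above every WT library (110.5 to 159.2 against 53.69 to 79.47). The log2 difference of KO from WT was 0.32 in LSK (SE 0.249) and 0.84 in Lin-negative libraries (SE 0.207), and that of Mut was -0.42 and -0.17 with the same SE. The LSK value of KO was 0.13 without the 3-month WT library and 0.60 without the 9-month libraries.

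Ssx2ip encodes a protein of cell junctions that also helps to anchor microtubules at the centrosome. LSK counts by age were 1443.2, 1740.5, 1571.6 and 2363.1 in WT, 1192.1, 1108.2, 1055.2 and 1326.8 in Mut, and 1035.2, 1201.5, 868.3 and 1559.6 in KO. Mut lay wholly below WT, and only the 12-month KO library entered the WT range. In Lin-negative cells the WT counts were 1614.8, 2149.5, 1841.7 and 2475.8, and both Mut (866.9 to 1307.0) and KO (833.4 to 1512.3) lay wholly below them. The log2 differences of Mut and KO from WT were -0.58 and -0.62 (SE 0.098 each) in LSK libraries, and -0.87 and -0.75 (SE 0.113 each) in Lin-negative libraries. All 16 single-age differences from WT were below 0, from -0.28 to -1.14.

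**Figure D2:**
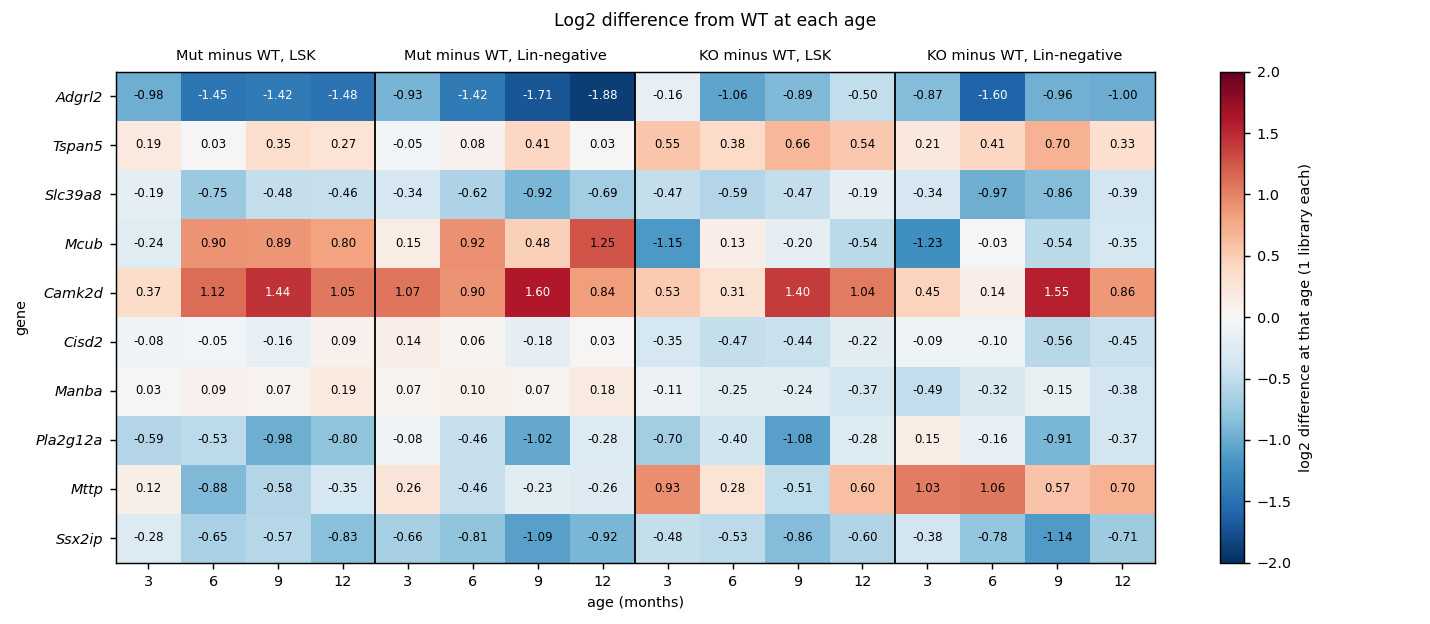
Log2 difference from the WT library of the same fraction and age for each of the 10 genes, with 1 library per genotype at each age. Columns are ages in months within each comparison, and colours run from blue (lower than WT) to red (higher). Adgrl2, Slc39a8 and Ssx2ip are below 0 in all 16 cells and Camk2d is above 0 in all 16, while Mcub is mostly red in Mut and mostly blue in KO.

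The differences of the 2 mutant genotypes from WT share the WT libraries, so they are set side by side and not correlated. In the limma fit with Benjamini-Hochberg adjustment over all genes, 1 of the 10 genes was called higher and 4 lower in LSK Mut, where 13.8% of 16007 genes were called. In LSK KO 2 were called higher and 5 lower, where 3.77% were called. In Lin-negative Mut 1 was called higher and 3 lower (2.36% of 15982 genes), and in Lin-negative KO 2 were called lower (0.582%). Between KO and Mut 0 of the 10 were called in either fraction by limma, where 0.0312% of genes were called in LSK and 0.0188% in Lin-negative cells. Of the 10, 6 had an unadjusted p under 0.05 for KO against Mut in LSK and 5 in Lin-negative cells. Over all genes 1035 of 16007 and 741 of 15982 did. In LSK cells edgeR also called 0 of the 10, where it called 0.0312% of genes. DESeq2 called 5 of the 10, where it called 0.562%. Nothing is read from these counts, because the same differences chose the genes. Manba, Mcub and Mttp were called in 0 of the 6 genotype comparisons by limma. In LSK cells DESeq2 called Manba and Mcub in 2 of 3 comparisons and Mttp in 0. Over all genes DESeq2 called 18.8% in Mut against WT, 9.02% in KO against WT and 0.562% in KO against Mut.

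Ranges that do not overlap were counted in the same way. Against WT, 1 gene of the 10 lay wholly higher and 3 wholly lower in LSK Mut (5.95% of all genes did not overlap), 1 and 1 in LSK KO (2.76%), 1 and 2 in Lin-negative Mut (4.15%), and 1 and 3 in Lin-negative KO (3.14%). Between KO and Mut the counts were 2 and 1 in LSK (1.27%) and 1 and 3 in Lin-negative cells (1.07%). The KO and Mut ranges separated for Mcub and Mttp in both fractions, for Adgrl2 in LSK cells, and for Cisd2 and Manba in Lin-negative cells. Whether a genotype difference itself differs between the fractions was not tested.

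The rest of the interval was described by position. Of the 139 tested genes within 20 Mb of Tet2, the 10 included, 12 were called higher and 12 lower in LSK Mut (17.3%, against 13.8% of all genes), and 3 higher and 8 lower in LSK KO (7.91%, against 3.77%). In Lin-negative cells 4 were higher and 4 lower of 138 in Mut (5.8%, against 2.36%) and 1 higher and 3 lower in KO (2.9%, against 0.582%). These counts varied: with 1 library left out, the 24 in LSK Mut became 7 to 31 and the 11 in LSK KO became 3 to 21, and with no age term each became 1. Without the 10 genes and without Gbp and Rpl34 genes, the shares were 11.4%, 1.63%, 0.82% and 0%, below the share over all genes in each. Those removed were chosen because they differed, so these lower shares carry that choice. The median absolute log2 difference in this remainder was 0.167 in LSK Mut and 0.149 in LSK KO, against 0.198 and 0.160 over all genes, and 0.160 and 0.180 in Lin-negative Mut and KO, against 0.175 and 0.197.

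**Figure D3:**
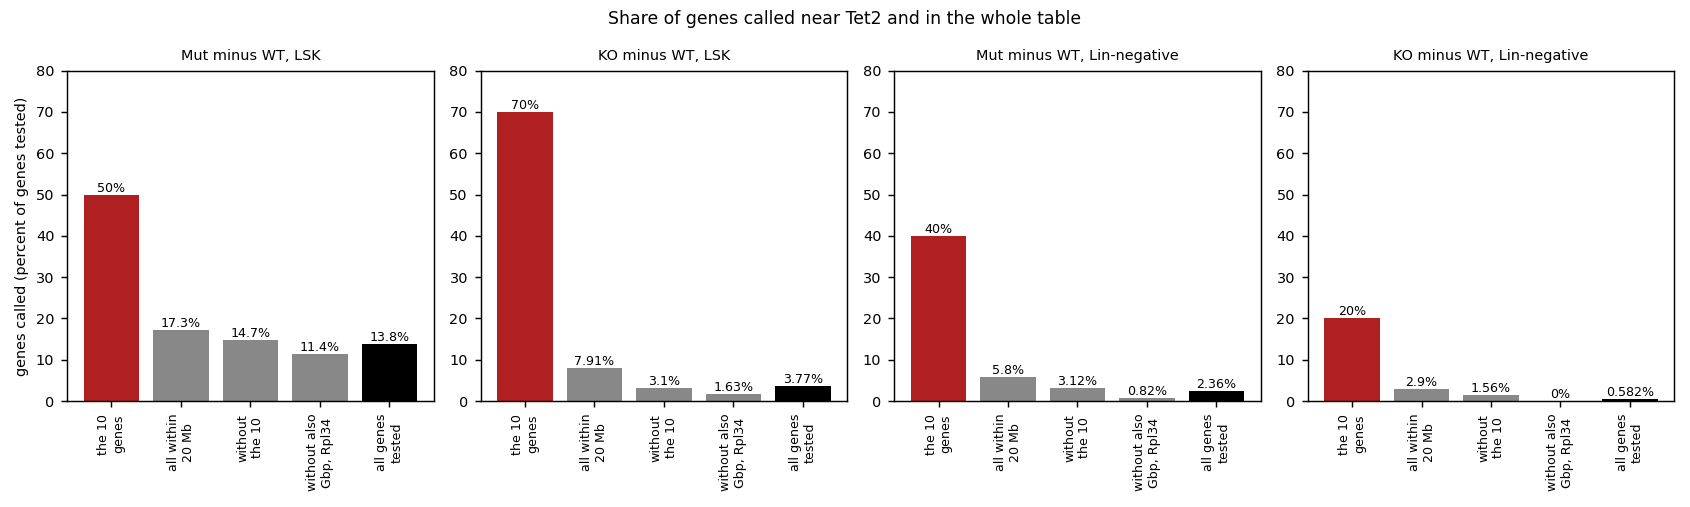
Percent of tested genes called by limma (adjusted p under 0.05) in the 4 comparisons with WT, for the 10 genes, for genes within 20 Mb of Tet2 with and without them, and for all genes. The 10 genes were chosen on these comparisons, so their bars describe the choice; with Gbp and Rpl34 genes also removed, the interval is called at 11.4%, 1.63%, 0.82% and 0%.

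By distance, the share of genes called in LSK Mut was 17.1% within 5 Mb of Tet2, 34.6% from 5 to 10 Mb and 11.1% from 10 to 20 Mb. It was 15.2% from 20 to 40 Mb, 16.7% beyond that on chromosome 3 and 14.8% on other chromosomes. In LSK KO the corresponding shares were 9.76%, 11.5%, 5.56%, 3.23%, 5.66% and 4.02%. The 4 genes called within 5 Mb in LSK KO were Cisd2, Pla2g12a, Slc39a8 and Rpl34. Lin-negative shares in the same order were 2.5%, 15.4%, 4.17%, 2.75%, 2.52% and 2.5% in Mut. In Lin-negative KO they were 2.5%, which is 1 gene of 40, then 3.85%, 2.78%, 0.917%, 0.946% and 0.592%. The bin from 5 to 10 Mb holds only 26 tested genes, among them the Gbp cluster, whose members encode interferon-induced GTPases, and Camk2d and Tspan5. At the edge of the interval, Dnajb4, 18.64 Mb from Tet2 and inside the limit, had a log2 difference of -0.44 in LSK Mut, and just outside it Asb17os (20.31 Mb) had -0.90 and Rabggtb (20.36 Mb) -0.36.

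**Figure D4:**
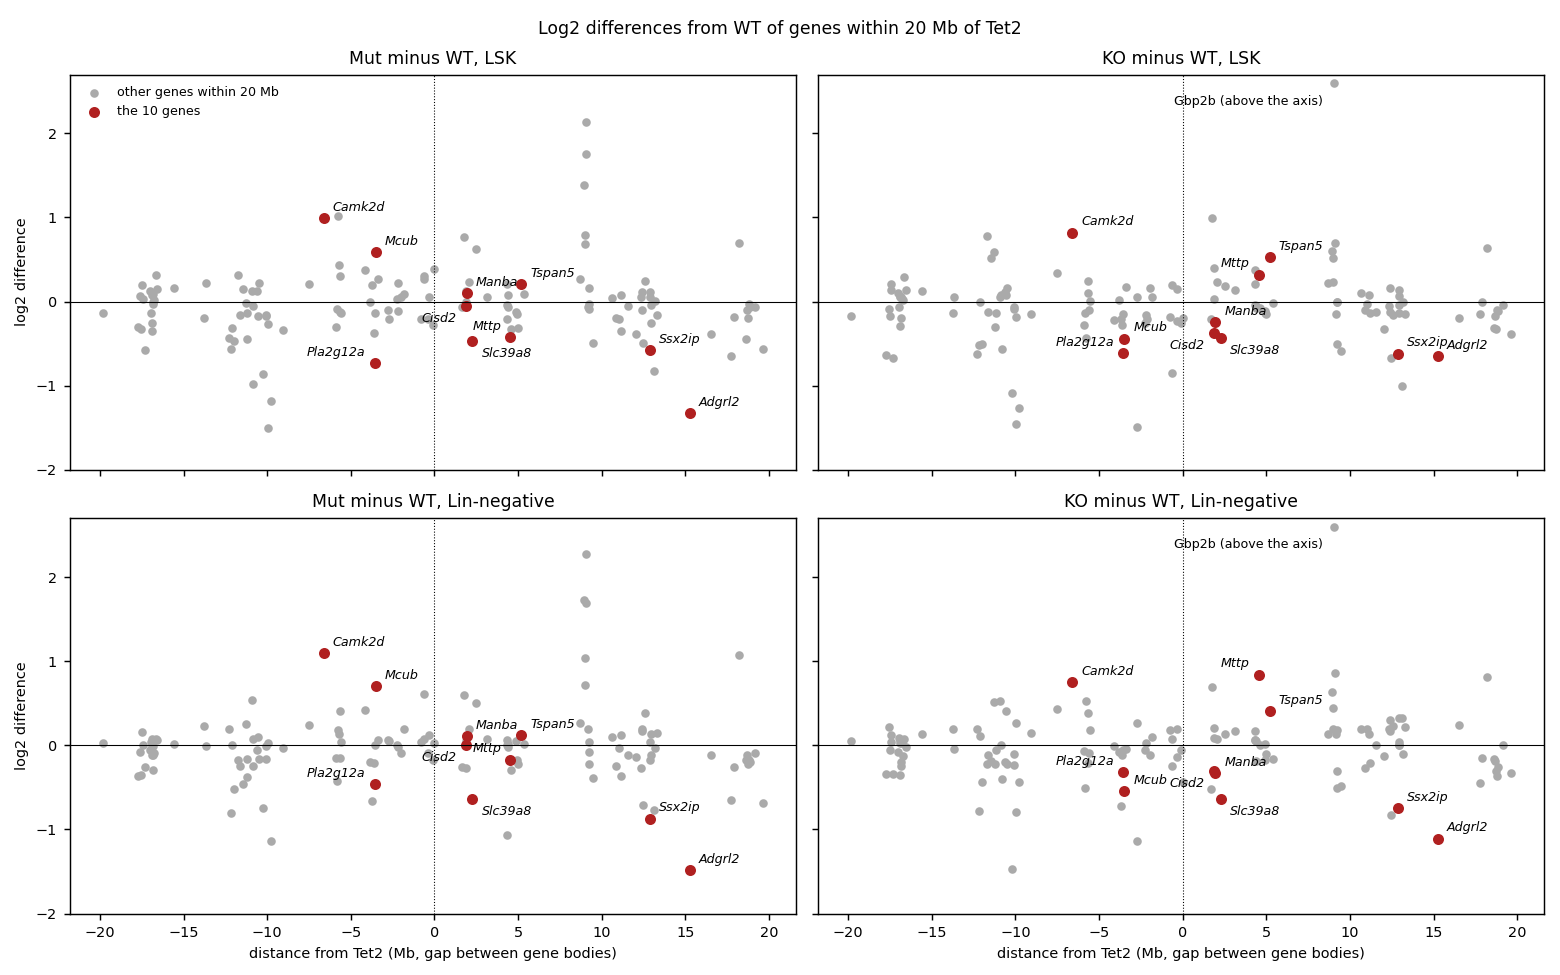
Log2 difference from WT of every tested gene within 20 Mb of Tet2 against its distance from Tet2 in Mb, for Mut and KO in each fraction. Red points are the 10 genes and grey points the others. Grey points near 0 lie on both sides of Tet2 across the interval. Some red points stand away from them, such as Adgrl2 (-1.33) and Camk2d (0.99) in LSK Mut. Others do not, such as Cisd2 (-0.05) and Manba (0.10) there. Gbp2b, at 7.04 and 6.98 in KO, is above the axis, and Prss12, at -2.22 in Lin-negative Mut, falls below it and is not shown.

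Outside the 10, 6 genes of the interval were called in the same direction in both fractions. In Mut they were Tlcd4 (-0.56 in LSK and -0.81 in Lin-negative cells), Gbp5 (1.39 and 1.73), Gbp3 (0.68 and 1.04) and Gbp2 (1.76 and 2.27). In KO they were Rpl34, a ribosomal protein gene with many processed copies, at -1.49 and -1.14, and Gbp2b at 7.04 and 6.98. Gbp genes are paralogs in a cluster and Rpl34 has pseudogenes, so how the counting divided reads shared among copies is uncertain for them.

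For each of the 10 genes the 3 genes with the most similar pattern were sought, by Pearson's r of log2 levels over the 24 libraries after centring each gene within fraction and age. Pairs of libraries share fraction, age and genotype, so these r are descriptions. Of the 30 genes listed, 5 were on chromosome 3 and 4 of those within 20 Mb of Tet2, where 140 of the 16070 genes of the table lie. These 4 include Manba and Mcub, which are among the 10 and list each other, so nothing is read from the count. Cisd2 was most like Rpl34 (r = 0.95), which lies 2.73 Mb from Tet2 on the other side. Manba was most like Dapp1 (0.87), 4.39 Mb from Tet2, and like Mcub (0.84), which in turn was most like Manba. For the other 7 genes the most similar gene lay elsewhere in the genome: Clstn3 for Adgrl2 (0.95), Cldn1 for Tspan5 (0.94), Mx1 for Camk2d (0.97), Tmem238 for Pla2g12a (0.97), Pitrm1 for Slc39a8 (0.97), 1700006J14Rik for Ssx2ip (0.97) and Rpl34-ps1 for Mttp (0.82). Centred in this way the levels keep mainly the genotype differences, which chose the 10 genes. Correlations among the 10, that of Manba with Mcub included, thus follow from the choice, and the others are not listed.

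Relatives of the 10 genes were taken from a list of 49 genes of the same families or pathways, of which 46 were tested. Adgrl4, 17.89 Mb from Tet2, and Slc39a1 are on chromosome 3, and the other tested relatives are on other chromosomes. In LSK Mut 2 were called higher and 2 lower (8.7%, against 13.8% of all genes), in LSK KO 2 and 1 (6.52%, against 3.77%), in Lin-negative Mut 1 higher (2.17%, against 2.36%) and in Lin-negative KO 0 by limma (against 0.582%). In LSK Mut and Lin-negative Mut these shares were thus below or near those over all genes. Pla2g7, which encodes the plasma phospholipase A2 that degrades platelet-activating factor, rose by 1.12 in LSK Mut, 0.90 in LSK KO and 1.19 in Lin-negative Mut (limma adjusted p = 0.0108, 0.0491 and 0.0259). Tspan33, another tetraspanin that binds ADAM10, fell by 0.60 in LSK Mut and 0.49 in LSK KO (limma adjusted p = 0.00924 and 0.0397). Man2b1, which encodes lysosomal alpha-mannosidase, rose by 0.31 in both (limma adjusted p = 0.014 and 0.0294), and Slc39a11, another zinc transporter gene, fell by 0.27 in LSK Mut (limma adjusted p = 0.0221). All relatives of the uniporter, of CaMKII, of Cisd2, of the latrophilins and of Mttp and Ssx2ip that were tested missed the threshold in the 4 comparisons with WT.

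Markers of several cell types moved with genotype, beside the 10 genes. Shares over all genes called were 13.8% in LSK Mut, 3.77% in LSK KO, 2.36% in Lin-negative Mut and 0.582% in Lin-negative KO. Of 9 macrophage markers in the table, 3 were called higher and 1 lower in LSK Mut, and 2 and 1 in LSK KO. The marker called lower was Vcam1 (-0.58 in LSK Mut and -0.67 in LSK KO). Vcam1 lies 17.33 Mb from Tet2 and is also counted among the called genes of the interval. The summed normalized count of the 9 markers ran from 11726.7 to 22534.9 in WT, 20422.9 to 28007.5 in Mut and 19064.8 to 22630.9 in KO. In Lin-negative cells 4 of the 9 were higher in Mut and 3 in KO, with 0 lower. Of 6 erythroid markers 5 were called lower in LSK Mut and 3 in LSK KO, with sums of 13215.6 to 26401.9 in WT, 8381.3 to 19025.5 in Mut and 6641.6 to 18700.6 in KO, and 2 of 6 were lower in Lin-negative Mut. Of 3 megakaryocyte markers 2 were lower in LSK Mut. The B cell list had 1 of 6 higher in Lin-negative Mut, the T cell list also 1 of 6 there, and the granulocyte list had 1 of 8 lower in LSK Mut. The stem and progenitor list had 1 of 10 higher in LSK Mut, 1 higher in Lin-negative Mut and 1 lower in Lin-negative KO. Of 6 T cell markers 4 were called higher in LSK Mut, with sums of 1967.8 to 2552.0 in WT and 2219.1 to 7048.4 in Mut. No marker of any list was at 0 in all libraries of a group. The part of these cell types in the differences of the 10 genes was not tested.

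The sex make-up of the pools also moved with genotype. The Y index at 3, 6, 9 and 12 months was 0.917, 0.176, 0.331 and 0.000 in LSK WT, 0.881, 0.627, 0.889 and 0.503 in LSK Mut, and 1, 0.811, 0.377 and 0.259 in LSK KO. With this index in the fit, the calls among the 10 genes were 1 in LSK Mut and 1 in LSK KO, and 2 each in Lin-negative Mut and KO. Over all genes the share called then was 0.718% and 0.375% in LSK, and 0.413% and 0.494% in Lin-negative cells. All 40 differences from WT of the 10 genes moved by less than their SD over the ages under each alternative setting. That includes the fit with the Y index. The SD over the ages is a wide limit: Mcub in LSK Mut (SD 0.553) went from 0.59 to 0.15 in that fit.

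The difference between the fractions, which did not enter the choice of the genes, was tested over the 12 pairs of libraries that share genotype and age. By limma 0 of the 10 genes passed, and 0% of 16061 genes did. An unadjusted p under 0.05 was found for 2 of the 10 and for 3581 of all genes. The log2 difference of LSK from Lin-negative cells ran from -0.19 (SE 0.066, adjusted p = 0.137) for Pla2g12a to 0.18 (SE 0.086, adjusted p = 0.229) for Adgrl2. Cisd2 had -0.10 (95% interval -0.18 to -0.03). The intervals of all 10 genes lay between -0.33 and 0.36. The paired libraries did not always match in sex make-up: at 3 months the Y index was 0.917 in LSK and 0.717 in Lin-negative WT, 0.881 and 0.472 in Mut, and 1 and 0.279 in KO.

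Change with age was tested as a slope per month with genotype in the fit. Slc39a8 rose with age in LSK cells by 0.07 log2 units per month (SE 0.017, limma adjusted p = 0.0381), and was the 1 gene of the 10 that passed, where 4.6% of all genes did. In Lin-negative cells its slope was 0.05 (SE 0.020, limma adjusted p = 0.147), and 0 of the 10 passed, where 4.63% did. An unadjusted p under 0.05 was found for 1 of the 10 and for 2951 of 15982 genes. The Slc39a8 call in LSK cells was lost without any 1 of 6 libraries (WT at 3 or 12 months, Mut at 6 or 12 months, KO at 3 or 12 months), and with the Y index in the fit, where the slope was 0.035 (adjusted p = 0.678) and 0% of all genes passed. The Y index was lower at 12 than at 3 months in 5 of the 6 groups, and 5 of 6 erythroid markers rose with age in LSK cells and 1 of 6 in Lin-negative cells. In LSK and Lin-negative cells in turn, 2 of 3 and 3 of 3 megakaryocyte markers rose, 3 of 6 and 6 of 6 B cell markers fell, and 1 of 9 and 5 of 9 macrophage markers fell. In each fraction 1 of 10 stem and progenitor markers rose and 1 of 8 granulocyte markers fell. The part of sex make-up and of these cell types in the slope was not tested beyond the fit with the Y index.

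By age, 3 genes had their highest count at 12 months in all 6 groups: Slc39a8, Pla2g12a and Ssx2ip. Cisd2 was highest at 9 months in all 6, as was Tet2, and Tspan5 lowest at 9 months in all 6. Manba and Mcub were lowest at 9 months in 5 of the 6. Pla2g12a and Ssx2ip were lowest, and Mttp highest, at 9 months in 4 of the 6. How many of all genes have such extremes was not counted, and the fractions are not independent. These counts thus describe levels and mark no trait of the 10 genes. Without the 9-month libraries, the slope of Slc39a8, Pla2g12a and Ssx2ip passed in both fractions, where 11.7% of genes passed in LSK and 10.5% in Lin-negative cells. The slopes without the 9-month libraries were 0.058 for Pla2g12a and 0.055 for Ssx2ip in LSK libraries, with Lin-negative slopes of 0.055 and 0.044.

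**Figure D5:**
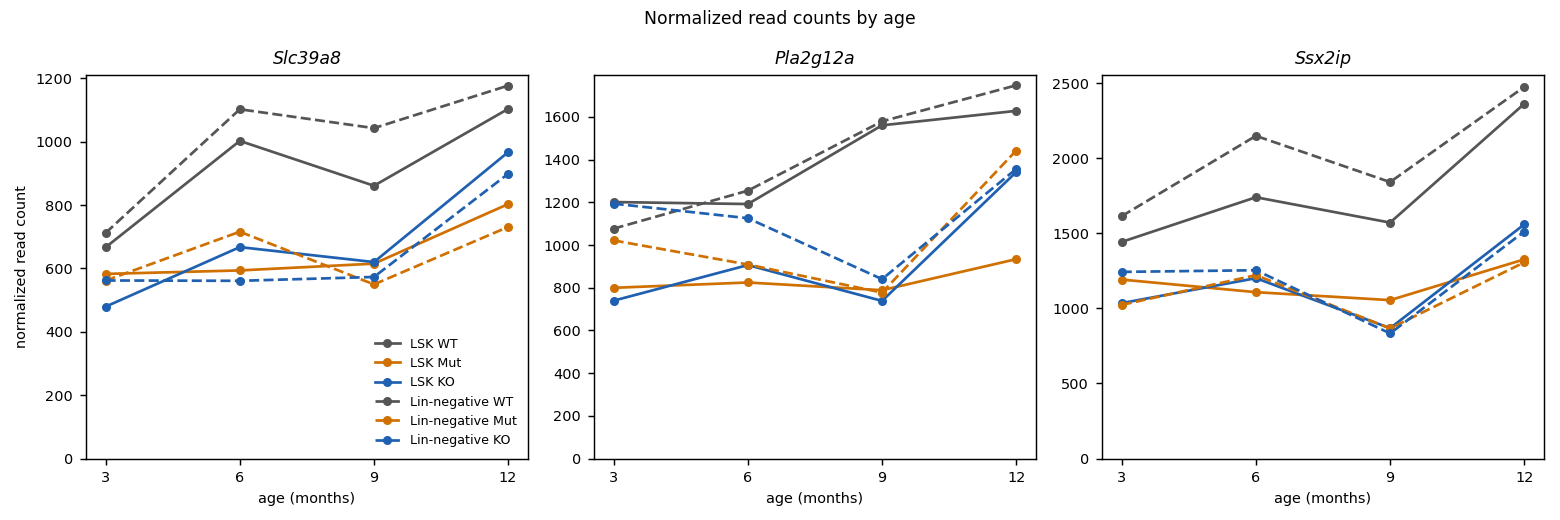
Normalized read counts of Slc39a8, Pla2g12a and Ssx2ip against age in months, 1 library per point; colours are genotypes, solid lines LSK and dashed lines Lin-negative libraries. Each of the 6 lines in each panel ends at its highest value at 12 months, and most lines dip or stay flat at 9 months.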

How the data were processed

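The deposited table gives a signal: gene read counts that the authors divided by 1 size factor per library. The build mm10 and the tools STAR 2.7.3a, Trim Galore 0.6.5, edgeR, featureCounts and Bismark 0.22.3 are named, with no roles or order, per the submitters' processing notes. For the annotation, strand setting, gene filter and reads with several matches, the sources used here give nothing. The table had 16070 genes, and 14763 (91.9%) had a position in RefSeq GRCm38.p6. It held 0 columns of other samples.

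The 10 genes, the lists of markers and of relatives and the tests were chosen with earlier results of these data known. Named genes are Tet2, the 10 genes, other genes of the interval called in the same direction in both fractions, the 3 genes most like each of the 10, and relatives that passed. Genes at the edge of the interval and the fraction markers named were chosen after their values were seen, and the relatives called in 1 fraction only are named for completeness.

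Levels were compared with limma 3.58.1 (R 4.3.3, mean-variance trend) on log2(value + 1), which understates changes of low genes, for genes that reached a value of 10 in 4 or more of the fitted libraries. All 10 genes passed this filter. Genotypes were compared within each fraction over 12 libraries with age as a factor, fractions over 24 libraries with genotype and age as a block, and age as a slope per month. Calls are Benjamini-Hochberg adjusted p under 0.05 over all genes, and intervals are 95%. In the 12 LSK columns 100.0% of values were whole reads within 0.01 reads after division by the column's step (totals 33800246 to 43059791 reads), so edgeR 4.0.16 (quasi-likelihood) and DESeq2 1.42.0 were also run there. In 2 Lin-negative columns whole reads could not be recovered with certainty, so no count test was run on Lin-negative cells. The fits were also run on simulated counts with known changes. That simulation gave every gene the same spread, changed only genes above a set level and had no sex or pool differences. It therefore does not bear on low genes or on how far the counts of calls moved between settings. Alternatives were another pseudocount, no filter, no trend, no age term, the Y index as a covariate, no 9-month libraries and each library left out in turn.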

Additional observations from a re-analysis of the deposited data

Results flagged for a closer look

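In each of 66 groups of 4 libraries (Tet2 and the 10 genes in 6 groups) the highest and the lowest library were checked for a gap to the next one that is large for the range of the group. In 6 groups 1 library stood apart by Dixon's test at 95%, and chance flags about 1 in 20 groups. Tet2 was 3098.3 in the 9-month Lin-negative WT library, against 1632.2 to 1815.3 in the other 3. Adgrl2 was 240 in the 6-month Lin-negative Mut library, against 157.1 to 163.5. Mcub was 799.3 in the 3-month Lin-negative WT library, against 462.9 to 515. Slc39a8 was 803.3 in the 12-month LSK Mut library, against 582.8 to 615.2, and 898.8 in the 12-month Lin-negative KO library, against 561 to 573.2. Mttp was 53.69 in the 3-month Lin-negative WT library, against 76.01 to 79.47. The libraries of a group differ in age as well, and a part of age in these gaps cannot be told apart from that of a single pool.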

How the results depend on the processing

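All 40 differences of the 10 genes from WT kept to within 1 SD over the ages of their main value in all 760 alternative values, with 0 reversals of a called value. Part of this was fixed in advance. In the limma fit a difference cannot change with no filter, no trend, no age term, or without a library of the third genotype. The SD over the ages is also a wide limit. Mcub in LSK Mut (SD 0.553) stayed within it while going from 0.59 to 0.15 with the Y index. The uncalled difference of Cisd2 in Lin-negative Mut ran from -0.04 to 0.09. Counts of called genes within 20 Mb moved more, and the cause was not tested. For LSK Mut the count was 24 in the main setting, 5 without the trend, 1 with the Y index, 1 with no age term and 4 without the 9-month libraries. For LSK KO it was 11, then 3, 3, 1 and 4, and 22 by DESeq2. For KO against Mut in LSK cells it was 2, then 1, 1, 0 and 1, and 7 by DESeq2. For Lin-negative Mut it was 8, then 4, 5, 4 and 3. For Lin-negative KO it was 4, and 1 without the trend, with no age term and without the 9-month libraries. For KO against Mut in Lin-negative cells it was 1, and 0 under the same 3 settings. Genes of the 10 called for age in LSK cells numbered 1, 0 without the trend and 0 with the Y index, and 3 without the 9-month libraries, and in Lin-negative cells 0 and 3.

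With 1 library left out at a time, the counts ran from 7 to 31 for LSK Mut, 3 to 21 for LSK KO, 1 to 3 for LSK KO against Mut, 5 to 10 for Lin-negative Mut, 1 to 5 for Lin-negative KO, 0 to 3 for Lin-negative KO against Mut, and 0 to 1 for age in LSK cells. Counts for age in Lin-negative cells and for the fractions stayed at 0. The counts moved by over 1.5 times without the Mut libraries at 6, 9 or 12 months or the WT libraries at 9 or 12 months (LSK Mut), without any LSK KO library but that at 6 months, any LSK WT library but that at 6 months, or the 12-month LSK Mut library (LSK KO), without the 3- or 9-month Mut or 6-, 9- or 12-month WT library (Lin-negative Mut), and without the 6-, 9- or 12-month WT or 9-month KO library (Lin-negative KO). Between KO and Mut they did so without any KO library or the 3-, 9- or 12-month Mut library in both fractions, and without the 3- or 9-month WT library in Lin-negative cells.

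Values near 0 changed sign. The LSK age slope of Manba became 0.008 without the 9-month libraries and 0.002 by edgeR, that of Mcub 0.010 and that of Camk2d -0.010 with the Y index, and the Lin-negative slope of Mcub 0.003 without the 9-month libraries. With the Y index the fraction differences of Camk2d, Slc39a8 and Mttp became 0.024, 0.004 and 0.021. With 1 library left out the LSK slope of Manba ran from -0.015 to 0.004, its Lin-negative slope from -0.003 to 0.008, the Lin-negative slope of Mcub from -0.040 to 0.013 and the LSK slope of Camk2d from -0.006 to 0.029. The fraction differences ran from -0.112 to 0.002 for Camk2d and from -0.066 to 0.042 for Mttp.

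The labels give no replicate numbers, so libraries were matched only by age, or by genotype and age for the fractions, as in the main fits. The edgeR and DESeq2 fits planned for Lin-negative cells and for the fractions were not run, since whole reads were not recovered in 2 of those columns. With 1 library of 3 pooled mice per age, the spread between pools of 1 age could not be estimated, and it, with the sex make-up of the pools, limits these comparisons. The lowest LSK total was 33800246 reads.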
